A study of Mus musculus with 12 samples.

Results

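The genes described here are 10 brain proteoglycan and perineuronal matrix genes: the lecticans Acan, Bcan, Ncan and Vcan, the link proteins Hapln1, Hapln2 and Hapln4, the tenascins Tnr and Tnc, and the receptor phosphatase Ptprz1. They were chosen by name, as every probe set that the array annotation gives to a single one of these symbols. All 10 were found, with 27 probe sets among them, out of 18193 genes with such a probe set. Where a gene had several, the brightest by mean signal over the 12 samples was used, and the others serve as a check. After leaving out dim probe sets, 12598 genes were tested, 9 of the 10 among them, and Hapln2 lay below the filter.

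Total RNA was measured on Affymetrix arrays in 4 groups of 3 mouse samples. These were NR3B knockout at postnatal day 5 (P5KO), wild type at postnatal day 5 (P5WT), NR3B knockout at postnatal day 0 (P0KO) and wild type at postnatal day 0 (P0WT). Grin3b is the gene usually meant by the protein name NR3B, a subunit of NMDA-type glutamate receptors. One label field gives the tissue as brain with hindbrain and spinal cord and another as brain alone, and neither the strain, the knockout allele nor the share of each region is stated. The samples of a group are numbered without a statement that each came from its own animal. The p-values therefore describe how these samples spread, and part of that spread may be technical.

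Lecticans are large chondroitin sulfate proteoglycans whose one end binds hyaluronan, the long sugar chain that forms the scaffold of brain matrix, and whose other end binds tenascins. Link proteins of the Hapln family clamp a lectican to hyaluronan, and tenascin-R joins several lecticans into a mesh. In the adult brain this mesh is densest in perineuronal nets, which wrap the cell bodies of certain neurons, many of them fast-spiking interneurons, and at nodes of Ranvier. Nets form after birth, later than the ages sampled here. Neurocan, versican and tenascin-C are known as components of the looser matrix of the young brain, and aggrecan as a core component of mature nets. In bulk tissue, fewer cells of a type and less RNA per cell cannot be told apart.

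Signals are given as deposited, after a scaling that set a trimmed mean of 2500.01 on each array, and differences are log2 differences after quantile normalization of log2(signal + 16). A signal depends on the probes, so levels are set side by side only within a probe set. Array medians ranged from 607 to 737, the lowest in P0KO sample 3, which also had the highest 3′ to 5′ signal ratios of Gapdh (0.839, against 0.658 to 0.790 elsewhere) and Actb (1.58, against 1.19 to 1.48 elsewhere). For 18S ribosomal RNA, P0WT sample 1 gave a mean signal of 5939 and all others gave 41474 to 90375. The median within-group SD was 0.133 in P5KO, 0.119 in P5WT, 0.210 in P0KO and 0.269 in P0WT on the log2 scale (n = 3 each). The limma tests below shared the spread of a gene over all groups. Their p-values between groups of the same age therefore do not measure the spread of those groups alone. Grin3b, the targeted gene, gave signals of 48, 39.7 and 45 in P5KO and 31, 39 and 97 in P0KO, against 273, 168 and 155 in P5WT and 353, 198 and 304 in P0WT. Every knockout sample was lower than every wild-type sample of its age, although the probe set lay below the filter and where it lies relative to the deleted part is not known here.

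Age was the contrast in which matrix genes changed. By their brightest probe sets, Vcan, Hapln1, Hapln4 and Ptprz1 were higher at P5 than at P0 in knockout and in wild-type tissue. The rises were 1.27-fold to 2.14-fold, and by these probe sets no gene of the set fell. With a Benjamini-Hochberg adjusted p under 0.05 in limma as the threshold, 4 of the 9 genes tested rose in P5KO against P0KO, where 10.5% of all genes changed and 5.53% rose. The same 4 rose in P5WT against P0WT, where 19.4% of all genes changed and 10.8% rose. Averaged over the genotypes, 4 of 9 rose and 0 fell, where 29.6% of all genes changed, 14.5% rising and 15.1% falling. The median difference of the 9 was 0.22, against 0.0014 over all genes tested. In both genotypes these 4 genes had every P5 sample above every P0 sample, which held in that direction for 14.6% of all genes in knockout and 18.4% in wild type. An exact two-sided permutation test of 3 against 3 samples cannot go below p = 0.1, which each of the 4 genes reached in both genotypes. Averaged over the genotypes, each of the 4 had an exact permutation p of 0.005, the smallest value that this test can give. Both p-values follow from every P5 sample lying above every P0 sample, so they restate the lack of overlap and add nothing to it. The share of all genes without overlap in both genotypes together was not counted.

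**Figure D1:**
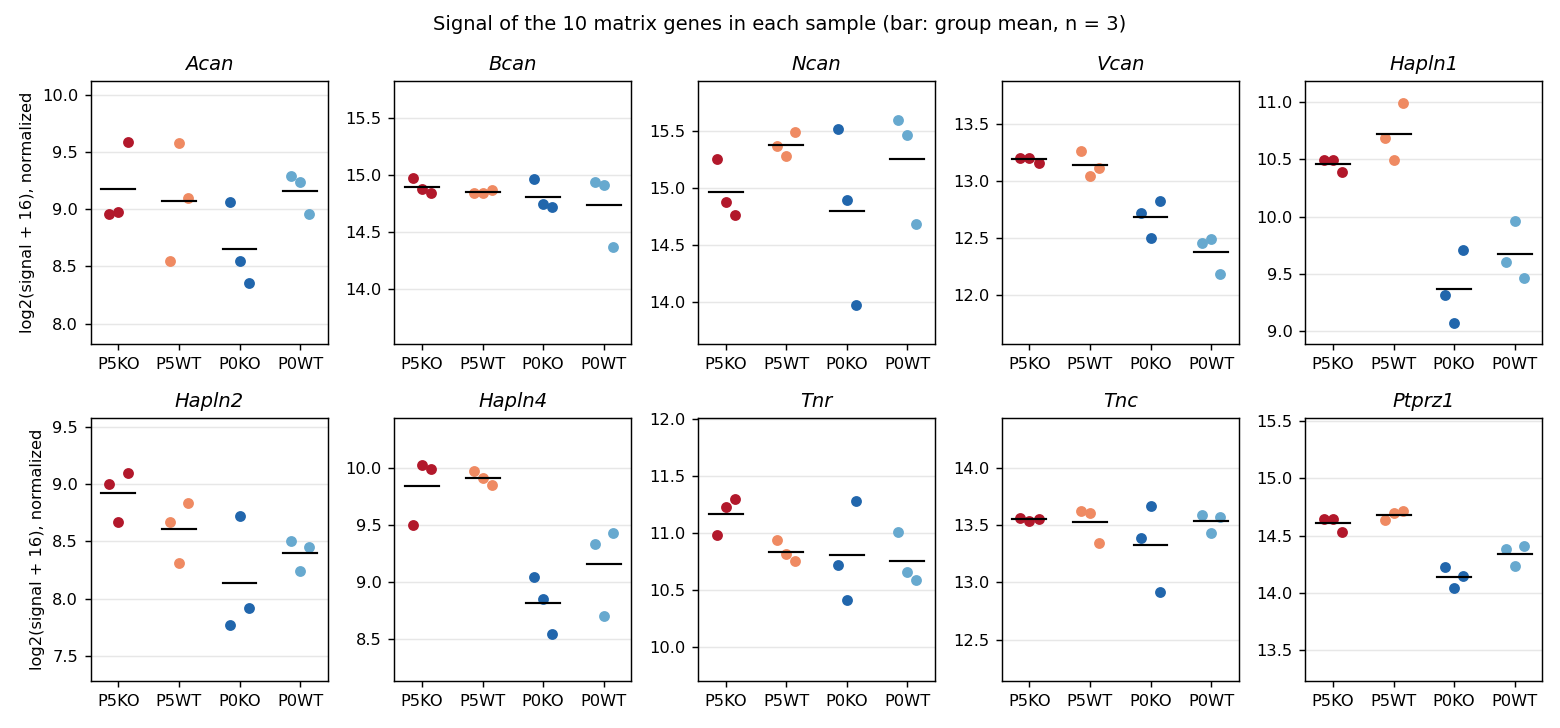
Normalized log2(signal + 16) of the brightest probe set of each of the 10 genes, 1 point per sample and a bar at the mean of each group of 3, with the groups in the order P5KO, P5WT, P0KO, P0WT. Each panel spans the same number of log2 units, and the P5 groups stand above both P0 groups without overlap for Vcan, Hapln1, Hapln4 and Ptprz1.

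Among the lecticans, Vcan on chromosome 13, which encodes versican, was the member that rose. Its brightest probe set, 1427256_at, had signals of 9416, 9474 and 9067 in P5KO, against 6682, 5671 and 7258 in P0KO. In wild type they were 9711, 8378 and 8890.3 in P5WT, against 5805, 5655 and 4763 in P0WT. The P5 samples lay close together in both genotypes and all exceeded the highest P0 sample. The difference was 0.51 ± 0.12 (SE, log2), or 1.42-fold, in knockout (limma adjusted p = 0.0203) and 0.76 ± 0.13, or 1.70-fold, in wild type (limma adjusted p = 0.00145). The knockout call for Vcan was lost without P5KO sample 1 (0.50, adjusted p = 0.0676), sample 2 (0.50, 0.0760) or sample 3 (0.52, 0.0633) or without P0KO sample 2 (0.42, 0.0791) and with median centring of the arrays (0.49, 0.0641), and passed in 20 of 25 alternatives. The average over the genotypes, 0.64 ± 0.089 (limma adjusted p = 0.000178), passed under every alternative tried.

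The array held 8 probe sets for Vcan. In a fit over all probe sets, 3 besides the brightest also rose at P5 against P0, averaged over the genotypes: 1421694_a_at by 0.76 (limma adjusted p = 0.00152), 1427257_at by 0.88 (adjusted p = 0.00398) and 1433044_at by 0.89 (adjusted p = 0.0492). A further one, 1433043_at, had 0.61 without passing (adjusted p = 0.138). In knockout, 1421694_a_at and 1427257_at rose by 1.04 and 1.23 (limma adjusted p = 0.00549 and 0.0118). In wild type they had 0.48 and 0.53 and did not pass (adjusted p = 0.131 and 0.209). The brightest set had its larger rise in wild type, so which genotype rose more depended on the probe set. The remaining 3 were at signals of 183 or less in all samples and had differences of -0.51 to -0.068 that did not pass. Versican is made in splice forms that differ in how many chondroitin sulfate chains they can carry, and the probe sets were not assigned to forms here.

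The other lecticans passed no age test with their brightest probe sets. Bcan, which encodes brevican, made largely by glia, ranged from 29295 to 30818 in signal over the 6 P5 samples and from 20317 to 33697 over the 6 P0 samples, with P0WT samples at both ends. Its average difference was 0.10 ± 0.10 (SE, log2; limma adjusted p = 0.476), and its second probe set gave 0.18 (adjusted p = 0.186). With weights that give less to arrays that stand apart, the average for Bcan was 0.25 and passed (limma adjusted p = 0.0146). It was 0.29 (adjusted p = 0.0125) without P0WT samples 1 and 2, a choice made with earlier results known, which leaves P0WT with sample 3 alone, the lowest of its Bcan samples. In every value without these samples, that lone sample is assumed to vary like the other groups.

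Ncan encodes neurocan, a lectican of growing axons and young matrix. Its brightest probe set, 1444020_at, ranged from 29060.5 to 44641 over P5 samples and from 17059 to 49715 over P0 samples, with P0KO sample 3 the lowest. The average difference was 0.15 ± 0.22 (SE, log2; limma adjusted p = 0.645). The next brightest set of Ncan, 1434679_at, ran the other way, with signals of 8286, 8691 and 7967 in P5KO and 8914, 6673 and 7989 in P5WT, against 11288, 9983 and 15258 in P0KO and 7283, 11087 and 9962 in P0WT. P0KO sample 3, lowest in the brightest set, was the highest of all samples in this one. With that set in its place Ncan fell by 0.37 on the log2 scale (limma adjusted p = 0.0393), and over all probe sets it did not pass (adjusted p = 0.0616). The third set had -0.11 (adjusted p = 0.650), so the direction for Ncan depended on the probe set.

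Acan encodes aggrecan, which is also a main proteoglycan of cartilage. Its only probe set was dim, from 369 to 775 in signal over P5 samples and from 276 to 632 over P0 samples. The difference was 0.52 ± 0.30 in knockout (SE, log2; limma adjusted p = 0.322) and -0.085 ± 0.30 in wild type (adjusted p = 0.866), and the samples of both ages overlapped in each genotype.

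The link proteins held the largest differences of the set. Hapln1, the link protein known from cartilage and from perineuronal nets, had signals of 1468, 1403 and 1298 in P5KO, against 652, 538 and 711 in P0KO. In wild type they were 1662, 1457 and 2066 in P5WT, against 795, 953 and 706 in P0WT. The lowest P5 sample was above the highest P0 sample across both genotypes. The rise was 1.10 ± 0.21 (SE, log2), or 2.14-fold, in knockout (limma adjusted p = 0.00448) and 1.05 ± 0.21, or 2.07-fold, in wild type (adjusted p = 0.0043). Of the 3 dimmer probe sets for Hapln1, 1426295_at also rose on average (0.74, limma adjusted p = 0.0251 over all probe sets), and the others had 0.63 (adjusted p = 0.0633) and 0.28 (adjusted p = 0.544). In wild type these 3 sets had 0.48, 0.25 and -0.29 in the same order and did not pass (adjusted p = 0.335 to 0.699). In knockout they had 0.861 to 1.012 and did not pass either (adjusted p = 0.0673 to 0.263). The wild-type call for Hapln1 passed in 23 of 24 alternatives. It was lost with 1426295_at in place of the brightest set (adjusted p = 0.213).

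Hapln4, a link protein of the brain that is known to partner brevican at inhibitory synapses, had a single probe set. Its signals were 722, 1008 and 989.8 in P5KO, against 544, 464 and 315 in P0KO, and 1014, 970.2 and 915 in P5WT, against 654, 399 and 691 in P0WT. The gap in wild type lay between 691 and 915, and the P0 samples of both genotypes were spread more widely than those of P5WT. The rise was 1.02 ± 0.24 (SE, log2), or 2.03-fold, in knockout (limma adjusted p = 0.0165) and 0.76 ± 0.24, or 1.69-fold, in wild type (adjusted p = 0.0448). For Hapln4 the call in wild type stood close to the threshold and passed in 9 of 24 alternatives, with adjusted p from 0.0310 to 0.275. The lowest difference there, 0.48, came without P0WT samples 1 and 2. In knockout the call was lost without P0KO sample 3 (0.89, adjusted p = 0.0587), P5KO sample 2 (0.93, 0.0799) or P5KO sample 3 (0.95, 0.0750), and the average over the genotypes, 0.89 ± 0.17 (limma adjusted p = 0.00186), passed in all 23 alternatives.

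Hapln2, a link protein of the nodes of Ranvier in myelinated tracts, was at 312 to 524 over P5 samples and 201 to 423 over P0 samples, below the filter. In the fit without the filter its average difference was 0.50 ± 0.22 (SE, log2; limma adjusted p = 0.146), and its second, also dim, probe set had 0.70 (adjusted p = 0.198). The P5 and P0 samples overlapped in both genotypes.

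**Figure D2:**
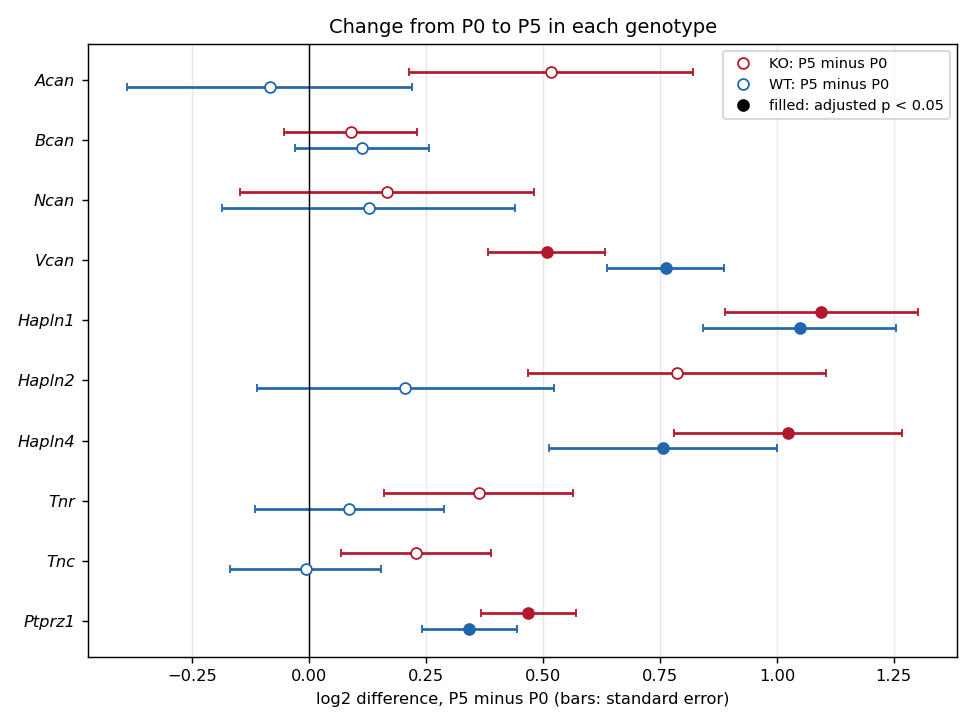
Difference between P5 and P0 of each gene's brightest probe set on the log2 scale, in knockout and in wild type, with bars of 1 SE from limma. Filled points mark an adjusted p under 0.05 and are those of Vcan, Hapln1, Hapln4 and Ptprz1 in both genotypes, from 0.34 for Ptprz1 in wild type to 1.10 for Hapln1 in knockout.

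Neither tenascin passed the age test. Tnr, which encodes tenascin-R, made by oligodendrocytes and some neurons, ranged from 1744 to 2456 over P5 samples and from 1319 to 2323 over P0 samples. The difference was 0.36 ± 0.20 in knockout (SE, log2; limma adjusted p = 0.293) and 0.086 ± 0.20 in wild type (adjusted p = 0.791). Without P0KO sample 3, the highest P0 sample of Tnr, the average over the genotypes was 0.34 and passed (limma adjusted p = 0.0496), against 0.22 with it (adjusted p = 0.251). With array weights it was 0.32 and also passed (adjusted p = 0.0466).

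Tnc, which encodes tenascin-C of the embryonic and early postnatal matrix, ranged from 10363 to 12497 over P5 samples and from 7793 to 12867 over P0 samples, with P0KO sample 3 again at the low end. Its average difference was 0.11 ± 0.11 (SE, log2; limma adjusted p = 0.487). The dimmer set of Tnc, 1456344_at, had -0.39 (adjusted p = 0.257 over all probe sets), with P0WT sample 1 at 5316 and the other samples between 1152 and 2676.

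Ptprz1 encodes a receptor tyrosine phosphatase of glia that carries chondroitin sulfate and binds tenascins and the growth factor pleiotrophin. A shed or spliced form of its outer part is phosphacan. Its signals were 24944, 25909 and 24588 in P5KO, against 19030.1, 17096 and 19147 in P0KO, and 25466, 26056 and 26205 in P5WT, against 19942, 20022 and 20911 in P0WT. Samples of a group differed little from each other, and the ages were far apart for that spread. The rise was 0.47 ± 0.10 (SE, log2), or 1.38-fold, in knockout (limma adjusted p = 0.0104) and 0.34 ± 0.10, or 1.27-fold, in wild type (adjusted p = 0.0328).

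The probe sets of Ptprz1 disagreed. The set 1427019_at rose by 0.52 on average (limma adjusted p = 0.00232 over all probe sets), while 1418690_at, nearly as bright as the one used, had 0.095 (adjusted p = 0.498). Used in place of the brightest, 1418690_at gave 0.22 in knockout (adjusted p = 0.228) and -0.033 in wild type (adjusted p = 0.857). In knockout the call for Ptprz1 was also lost without P5KO sample 2 (0.45, adjusted p = 0.0527) and with median centring (0.43, 0.0588), and passed in 22 of 25 alternatives. In wild type it passed in 16 of 25. It was lost there without P5WT sample 1, 2 or 3 (0.36, 0.34 and 0.33, with adjusted p from 0.0813 to 0.104) and without P5KO sample 3 (0.34, 0.0503). It was also lost with median centring (0.34, adjusted p = 0.0929), with only the 2 groups in the fit (0.34, 0.106), with a prior without intensity trend (0.34, 0.0532) and without P0WT samples 1 and 2 (0.27, 0.104).

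**Figure D3:**
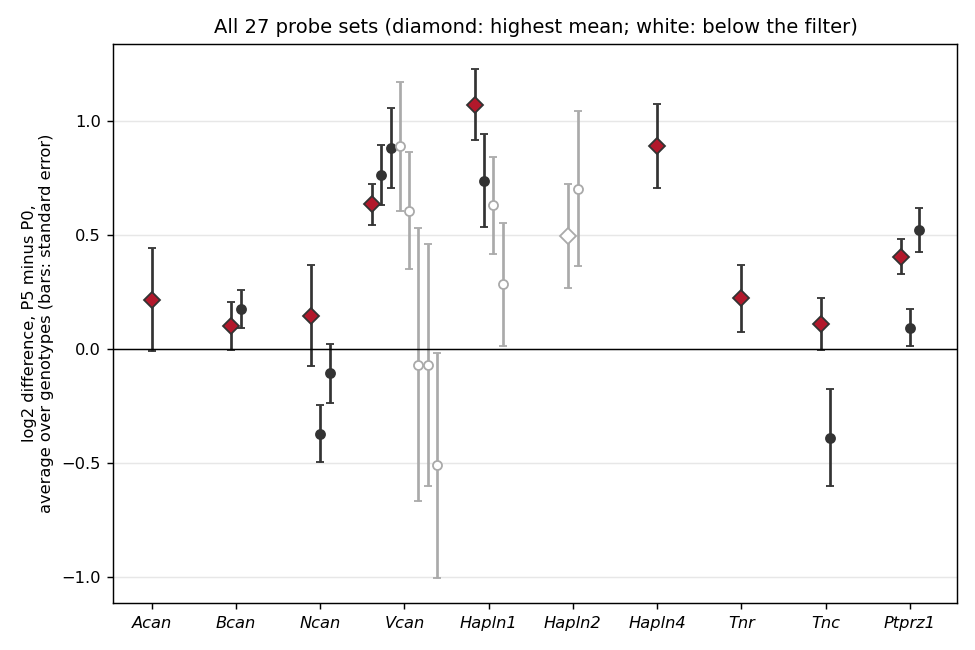
Average P5 minus P0 difference of all 27 probe sets of the 10 genes on the log2 scale, with bars of 1 SE from limma, grouped by gene. Diamonds mark the brightest probe set of a gene and white symbols probe sets below the filter. Most sets of Vcan and Hapln1 lie above 0, and those of Ncan, Tnc and Ptprz1 differ among themselves.

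Bases before the transcription start are shown for the risen genes that have an entry, to set beside each other Hapln1 and Vcan, which are next to each other on chromosome 13 and both rose, and Ptprz1 on chromosome 6. Of the 10 genes, 9 had an entry in the RefSeq promoter table of build GRCm38.p6, all but Hapln4. Each sequence below holds the 250 bases before a start, read 5′ to 3′ on the gene's strand, at chr13:89540386-89540635 on the plus strand for Hapln1, chr13:89742513-89742762 on the minus strand for Vcan and chr6:22875252-22875501 on the plus strand for Ptprz1. Capitals mark GGGCGG, the core of a GC box, and its reverse complement CCGCCC.
Hapln1: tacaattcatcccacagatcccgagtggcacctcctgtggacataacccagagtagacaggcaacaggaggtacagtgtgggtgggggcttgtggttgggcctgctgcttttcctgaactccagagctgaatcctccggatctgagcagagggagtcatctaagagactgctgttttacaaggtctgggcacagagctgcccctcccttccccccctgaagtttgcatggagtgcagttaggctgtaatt
Vcan: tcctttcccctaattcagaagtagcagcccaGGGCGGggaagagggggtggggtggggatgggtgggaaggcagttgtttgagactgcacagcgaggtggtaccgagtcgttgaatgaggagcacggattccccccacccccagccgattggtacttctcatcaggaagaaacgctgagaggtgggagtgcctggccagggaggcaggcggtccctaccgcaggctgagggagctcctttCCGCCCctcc
Ptprz1: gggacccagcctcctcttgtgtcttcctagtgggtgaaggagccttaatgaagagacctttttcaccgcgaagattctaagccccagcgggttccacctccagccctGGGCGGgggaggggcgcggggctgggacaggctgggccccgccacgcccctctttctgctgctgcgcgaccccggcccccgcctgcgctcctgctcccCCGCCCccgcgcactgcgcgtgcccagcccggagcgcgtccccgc

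The Hapln1 window held 54.4% G or C and 0 copies of the motif, the Vcan window 62.4% and 2 copies, and the Ptprz1 window 71.6% and 2 copies. Searched on both strands, GGGCGG was in 32.7% of the 32851 windows of that length in the table and in those of 6 of the 9 genes with an entry. The letters TATAAA or TTTATA were in 12.4% of all windows and in those of 2 of the 9 genes, Ncan and Tnc. The 3 genes that rose and are shown differed in base composition and in whether they held the motif, and a match describes the letters alone.

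The pairing of lecticans and link proteins on chromosomes extended beyond Vcan and Hapln1. Among protein-coding genes of the RefSeq table, Bcan and Hapln2 are neighbours on chromosome 3, Ncan and Hapln4 on chromosome 8, and Acan stands next to Hapln3 on chromosome 7. In the Ncan and Hapln4 pair Hapln4 rose and Ncan passed no test with its brightest probe set, and in the Bcan and Hapln2 pair neither passed. Hapln3, which is not in the set, had an average age difference of 0.13 ± 0.17 (SE, log2; limma adjusted p = 0.581).

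Ratios between genes were followed over age, since only a change of such a ratio can be read from arrays. Of 7 pairs, Bcan over Vcan passed: it was lower at P5 by 0.42 on the log2 scale in knockout and 0.65 in wild type, with an average of -0.53 (exact two-sided permutation p = 0.005, adjusted p = 0.035 over the 7 pairs). In 0 of 6 P5 samples was the ratio above the P0 mean of its genotype. The adjusted p for Bcan over Vcan was 0.07 without any 1 of the 3 P5KO samples and 0.0525 with the next brightest probe sets, where the average was -0.59. The ratio of Bcan to Ptprz1 averaged -0.30 (exact p = 0.025, adjusted p = 0.0875), and without P0WT sample 3 it was -0.41 (adjusted p = 0.0175).

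The other 5 ratios passed no test. Tnr over Tnc averaged 0.11 (exact permutation p = 0.665), Acan over Vcan -0.42 (exact p = 0.17), Bcan over Ncan -0.046 (exact p = 0.86), Hapln4 over Hapln1 -0.18 (exact p = 0.48) and Hapln2 over Hapln1 -0.58 (exact p = 0.075) on the log2 scale.

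No gene of the set passed the test between knockout and wild type. At P5, 0 of 9 passed in limma, against 0.00794% of all genes, and 0 of 9 had an unadjusted p under 0.05, against 1.85% of all genes. At P0, 0 of 9 passed, against 0.0238% of all genes, and 1 of 9 had an unadjusted p under 0.05, against 16.1% of all genes. Averaged over the ages 0 of 9 passed, against 0.0238%, and 0 of 9 had an unadjusted p under 0.05, against 8.63%. The background shares at P0 and in the average depended on the treatment of single arrays. Without P0WT sample 2, 2681 of all genes passed at P0 and 743 in the average, and 0 genes of the set passed in either. At P5 the number stayed at 1 without that sample. With array weights and all samples, 3084 of all genes passed at P0 and 2047 in the average, among them 2 and 1 of the set. On simulated data of this design, the test recovered 79% of genes changed by a log2 difference of 1 at P5 and 71% at P0, and all differences between the genotypes in the set were smaller than that. The simulation gave a gene the same spread in every group and varied genes independently. In the data the P0 samples spread more than the P5 samples, so these shares do not measure the power at either age.

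The groups did not overlap for 2 genes at each age, at P5 against 12.9% of all genes and at P0 against 10.2%. At P5 these were Tnr and Ncan. Tnr had 2049.6, 2369.6 and 2456 in P5KO, against 1986, 1821 and 1744 in P5WT, a difference of 0.33 ± 0.20 (SE, log2; limma adjusted p = 0.9998 and exact permutation p = 0.1). Ncan had 37820.1, 29885 and 29060.5 in P5KO, against 42160.4, 39561 and 44641 in P5WT, a difference of -0.41 ± 0.31 (limma adjusted p = 0.9998 and exact permutation p = 0.1). The other 2 probe sets of Ncan had 0.093 and -0.037 at P5, so the lower values were seen in its brightest set.

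At P0 the groups that did not overlap were those of Vcan and Ptprz1. Vcan had 6682, 5671 and 7258 in P0KO and 5805, 5655 and 4763 in P0WT as signals, which overlap as deposited. After normalization every knockout sample was higher, but the lowest, at 12.5059, barely exceeded the highest wild-type sample, at 12.4977. The mean difference was 0.30 ± 0.13 (SE, log2, with limma adjusted p = 0.293). The sets 1421694_a_at and 1427257_at of Vcan ran the other way at P0, with -0.61 ± 0.19 and -0.75 ± 0.25 (adjusted p = 0.329 and 0.337 over all probe sets). In both of these, P0KO sample 3 was the lowest sample, at 1184 and 572.

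Ptprz1 at P0 had 19030.1, 17096 and 19147 in P0KO, against 19942, 20022 and 20911 in P0WT, with every knockout sample lower. After normalization the highest knockout sample, at 14.2298, lay barely below the lowest wild-type sample, at 14.2324. The mean difference was -0.20 ± 0.10 (SE, log2, with limma adjusted p = 0.331). The sets 1427019_at and 1418690_at of Ptprz1 had -0.45 ± 0.14 and -0.16 ± 0.11 at P0 (limma adjusted p = 0.329 and 0.562 over all probe sets). Averaged over both ages the brightest set of Ptprz1 had -0.14 ± 0.072 (limma adjusted p = 0.587 and exact permutation p = 0.02). With weights that give less to arrays that stand apart, Vcan at P0 passed at 0.41 (limma adjusted p = 0.0267) and Ptprz1 at -0.29 (adjusted p = 0.0356).

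Of the other genes, Acan had -0.50 ± 0.30 at P0 (SE, log2; limma adjusted p = 0.392) and Hapln1 had -0.27 ± 0.21 at P5 and -0.31 ± 0.21 at P0 (adjusted p = 0.9998 and 0.427). The dimmer sets of Hapln1, 1426295_at, 1426294_at and 1421633_a_at, had larger differences at P0, of -0.72, -0.74 and -0.89 (adjusted p = 0.352, 0.352 and 0.360 over all probe sets). At P5 they had -0.20, 0.027 and 0.26. Hapln4 had -0.073 ± 0.24 at P5 and -0.34 ± 0.24 at P0 (adjusted p = 0.9998 and 0.465). Bcan had 0.043 and 0.067 and Tnc had 0.026 and -0.21 at P5 and P0, and each had an SE of 0.14 or 0.16. The dimmer set of Tnc had -0.29 at P5 and -0.69 at P0 (adjusted p = 0.9999 and 0.364 over all probe sets).

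**Figure D4:**
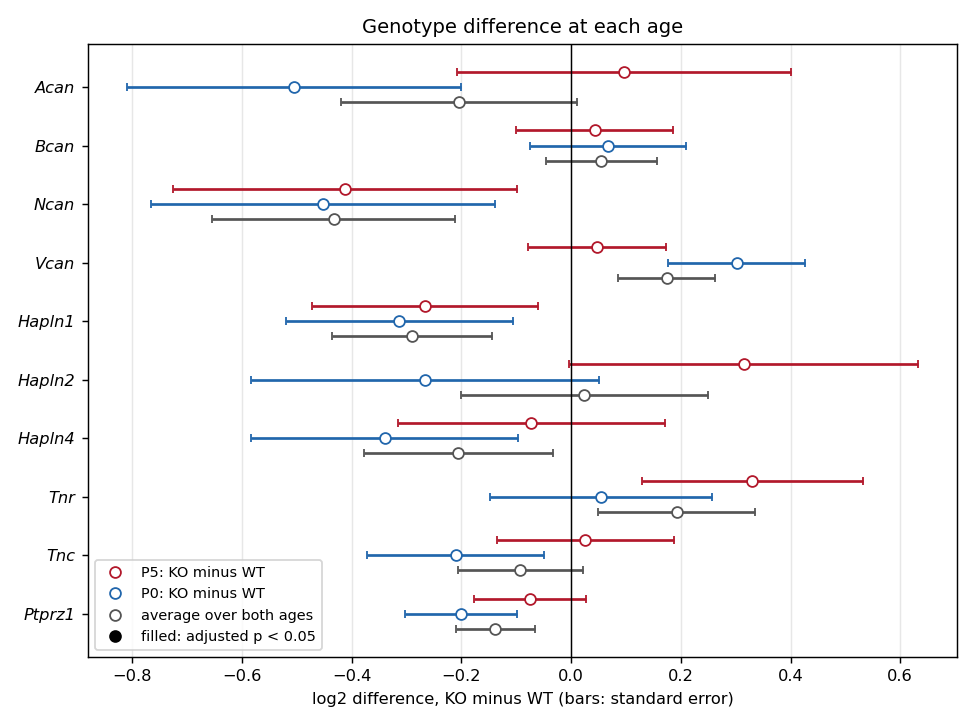
Knockout minus wild type difference of each gene's brightest probe set on the log2 scale at P5, at P0 and averaged over both ages, with bars of 1 SE from limma. No point is filled, since none had an adjusted p under 0.05, and the differences lie between -0.50 for Acan at P0 and 0.33 for Tnr at P5.

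The change with age was also compared between the genotypes. The interaction passed for 0 of 9 genes in limma, as for 0 of all 12598, and 0 of 9 had an unadjusted p under 0.05, against 4.94% of all genes. Without P0WT sample 2 the interaction passed for 206 of all genes and with array weights for 1528, and for 0 genes of the set in both. By the brightest probe sets of the 9 genes, the interaction was largest for Acan, Tnr, Hapln4 and Vcan. It was 0.60 ± 0.43 for Acan (SE, log2, with adjusted p = 0.743) and 0.28 ± 0.29 for Tnr (adjusted p = 0.784). It was 0.27 ± 0.34 for Hapln4 (adjusted p = 0.825) and -0.25 ± 0.18 for Vcan (adjusted p = 0.743). The other sets of Vcan above the filter, 1421694_a_at and 1427257_at, had the opposite sign, 0.56 ± 0.26 and 0.70 ± 0.35 (adjusted p = 0.817 for each over all probe sets). For Hapln1 the brightest set had 0.047 ± 0.29. Its dimmer sets 1426295_at, 1426294_at and 1421633_a_at had 0.52 ± 0.40, 0.76 ± 0.42 and 1.152 ± 0.54. They did not pass (adjusted p = 0.817 for each over all probe sets), and 1426294_at and 1421633_a_at lay below the filter. The size of the interaction for Hapln1 therefore depended on the probe set. For Hapln1, Vcan, Hapln4 and Ptprz1 the brightest sets had interaction standard errors of 0.29, 0.18, 0.34 and 0.14. Their average age differences were 1.07, 0.64, 0.89 and 0.41. For Acan, Ncan, Bcan, Tnr and Tnc the standard errors, 0.20 to 0.44, exceeded the average age differences, 0.10 to 0.22. Recovery of an interaction was not simulated, and with 3 samples a group a moderate difference between the genotypes could have been missed.

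Genes that act on the same matrix were followed from 6 lists. Averaged over the genotypes, the enzymes of chondroitin sulfate synthesis had 0 risen and 2 fallen genes of 19 tested, with a median of -0.091. B3galt6, which builds the linker to the core protein, fell by 0.55 on the log2 scale (limma adjusted p = 0.00298), and Chpf, a cofactor of chain extension, fell by 0.42 (adjusted p = 0.00896).

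For hyaluronan, 4 genes rose and 1 fell of 8 tested, with a median of 0.34. Cemip and Cemip2, which take part in hyaluronan breakdown, rose by 0.88 and 0.72 (limma adjusted p = 8.75e-05 and 0.00189). The receptors Hmmr and Cd44 rose by 1.39 and 0.53 (adjusted p = 2.96e-05 and 0.0345), and the synthase Has3 fell by 0.71 on the log2 scale (adjusted p = 0.0428). Hmmr is also a gene of dividing cells. Without P0KO sample 3, 3 of the 8 rose and 0 fell, where 3421 of all genes passed, against 3734 with all samples. Counts of list genes with samples left out were an alternative chosen after seeing the data.

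Among matrix proteases and their inhibitors, 4 rose and 5 fell of 19, with a median of 0.025. Adamts4, an aggrecanase that cuts lecticans, had the largest rise of the list, 2.52 ± 0.25 in knockout and 2.49 ± 0.25 in wild type (SE, log2; limma adjusted p = 4.64e-05 and 3.54e-05). Adamts1, a related protease, rose by 0.87 on average (adjusted p = 0.00018), and the inhibitors Timp4 and Timp1 rose by 0.58 and 1.04 (adjusted p = 0.00712 and 0.0149). The inhibitor Timp2 fell by 0.32 (adjusted p = 0.0249) and Adamts20 fell by 0.53 (adjusted p = 0.0312), both on the log2 scale.

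Of ligands and receptors, 5 rose and 6 fell of 23, with a median of 0.067. The receptor Egfr, reported to bind tenascin-C, rose by 0.98 (limma adjusted p = 4.05e-06), Nfasc, a cell adhesion protein of nodes, rose by 0.91 (adjusted p = 3.95e-05), and Mdk, a growth factor that binds Ptprz1, rose by 1.204 (adjusted p = 0.00283). L1cam, an adhesion protein that binds neurocan, fell by 0.67 on the log2 scale (adjusted p = 0.000309). Nptx2, a synaptic pentraxin, fell by 0.69 (adjusted p = 0.0034) and Sema3a, a repellent that binds net glycans, fell by 0.56 (adjusted p = 0.00437).

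Other chondroitin sulfate and small proteoglycans had 5 risen and 1 fallen gene of 11, with a median of 0.13. The small leucine-rich proteoglycans Dcn, Bgn, Fmod and Lum rose by 0.92, 0.69, 0.59 and 0.77 (limma adjusted p = 0.000813, 0.00148, 0.00344 and 0.00649), and Spock1, a brain proteoglycan, fell by 0.61 on the log2 scale (adjusted p = 0.0110). Within knockout, 0 of the 11 passed, and within wild type 4 rose and 1 fell. The counts averaged over the genotypes changed without P0WT samples 1 and 2, which leaves 1 P0WT sample. Dcn and Lum are also on the list of meninges markers, of which 4 rose and 0 fell of 9 and whose summed signal was 153156 to 166859 in P5KO and 145140 to 169137 in P5WT, against 129996 to 159036 in P0KO and 67605.8 to 93837.5 in P0WT. Red blood cell markers were likewise lowest in P0WT, at 1181.1 to 2090.5 in summed signal, against 2932.4 to 4503 in P0KO. The part of these markers in the age and P0 genotype values was not tested.

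Of heparan sulfate proteoglycans, 1 rose and 3 fell of 14, with a median of -0.044. Gpc2, a glypican of growing axons, fell by 1.35 on the log2 scale (limma adjusted p = 1.14e-06), Agrn, which encodes agrin, fell by 0.79 (adjusted p = 0.000134), and Gpc1 fell by 0.32 (adjusted p = 0.0194). Col18a1 rose by 0.67 (adjusted p = 0.0293). Without P0KO sample 3, 0 of the 14 rose, where 3421 of all genes passed, against 3734 with all samples. The counts of this list also changed without P0WT samples 1 and 2, which leaves 1 P0WT sample. In the genotype comparisons, 0 genes of any of the 6 lists passed with all samples. With P0WT sample 3 as the only P0WT sample, 568 of all genes passed in P0KO against P0WT, and of the 6 lists these were Timp2 at -0.48 and Mdk at 1.21 (limma adjusted p = 0.0388 and 0.0499).

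**Figure D5:**
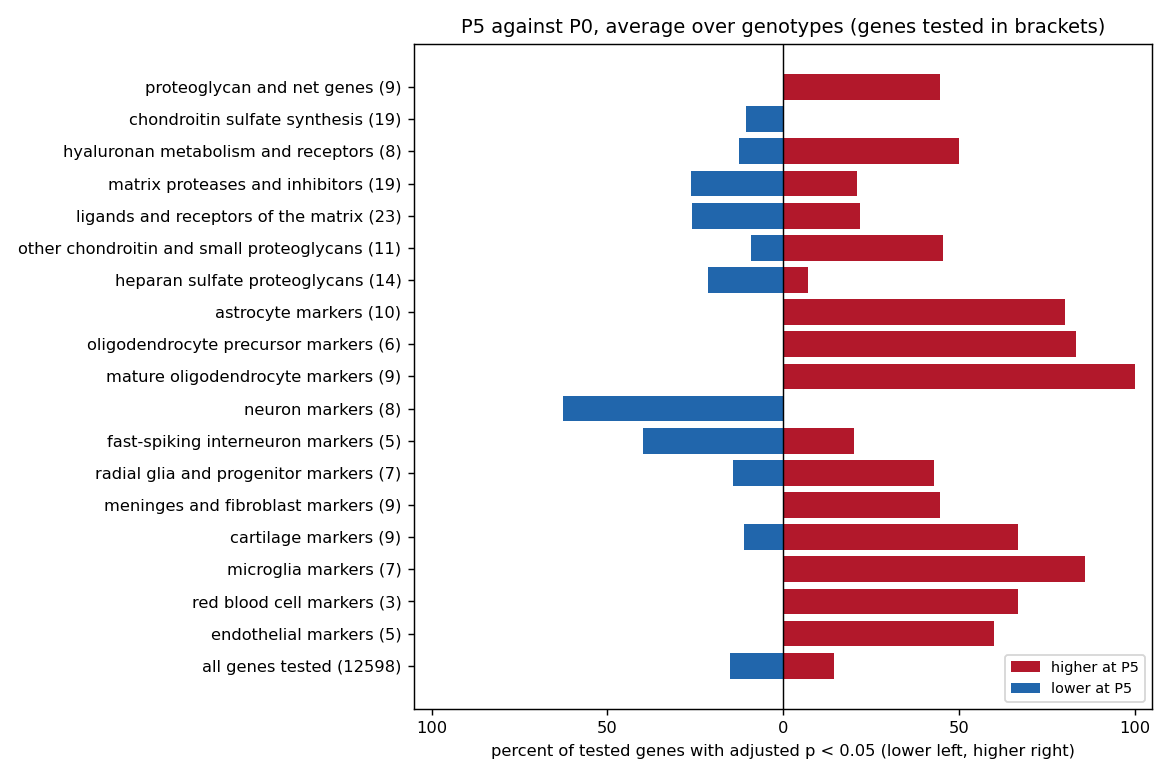
Percent of the tested genes of each list that rose or fell between P0 and P5, averaged over the genotypes, at a limma adjusted p under 0.05, with the matrix genes and all 12598 genes for comparison. All genes stand at 14.5% risen and 15.1% fallen. The matrix genes and the lists of astrocyte, oligodendrocyte, meninges, microglia, red blood cell and endothelial markers hold risen genes with none fallen.

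Markers of cell types moved with age in the same samples. Of astrocyte markers 8 rose and 0 fell of 10, with Gfap at 2.05, and their summed signal was 270836 to 289325 in P5KO and 261922 to 272366 in P5WT, against 183703 to 202210 in P0KO and 181830 to 210926 in P0WT. Oligodendrocyte precursor markers had 5 risen of 6, with Gpr17 at 1.10. Mature oligodendrocyte markers rose in 9 of 9, with a median of 2.37 and summed signals of 219380 to 272121 in P5KO and 250914 to 277445 in P5WT, against 42271.1 to 66261.8 in P0KO and 45114.8 to 66808.6 in P0WT.

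Neuron markers had 0 risen and 5 fallen genes of 8, with Tubb3 at -0.46. Of fast-spiking interneuron markers, Pvalb rose by 1.26 (limma adjusted p = 0.000667), Gad1 fell by 0.41 on the log2 scale (adjusted p = 0.0078) and 2 fell in all of 5. Radial glia and progenitor markers had 3 risen and 1 fallen of 7, endothelial markers 3 risen of 5 and microglia markers 6 risen of 7.

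Cartilage markers were followed because Acan, Hapln1 and Vcan are also genes of cartilage, which lies next to the hindbrain and spinal cord. Of 14, 9 were above the filter, 6 rose and 1 fell. Col2a1, the main collagen of cartilage, rose by 0.75 (limma adjusted p = 0.00938), Col9a1 by 1.16 (adjusted p = 8.75e-05) and Ucma by 1.47 (adjusted p = 0.000403), while Col11a1 fell by 0.66 on the log2 scale (adjusted p = 0.000415). Their summed signal was 14003 to 15241.8 in P5KO and 14147.4 to 15211.6 in P5WT, against 10852.8 to 11332 in P0KO and 10887.7 to 13033.1 in P0WT. These marker groups moved with age beside the rise of Vcan, Hapln1, Hapln4 and Ptprz1, and their part in that rise was not tested.

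The genes whose profile over the 12 samples was closest to that of each risen gene were found by the root mean square difference of mean-centred log2 values, as a description. For Vcan these were Ctbp2 (0.114), Peli1 (0.119) and Tjap1 (0.124), against a median of 0.430 over all genes. For Hapln1 they were Unc5c (0.185), Tppp (0.209) and Foxn2 (0.221), against a median of 0.639. For Hapln4 they were Nr3c1 (0.144), Tmpo (0.157) and Gab1 (0.171), against 0.595. For Ptprz1 they were Sypl (0.0685), Mbnl1 (0.0783) and 2510009E07Rik (0.0817), against 0.363. No gene of the matrix set was among the 3 closest to another.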

How the data were processed

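The deposited series table holds 1 probe set intensity per sample on a linear scale, as made by the authors. The software behind it was not given in the sources used here. Of 45101 probe sets, 64 controls were set aside, and of the rest 34945 carry 1 gene symbol, 932 several and 9160 none. Intensities became log2(signal + 16) and were quantile-normalized. A gene was represented by its brightest probe set and tested if that probe set's mean reached the 40th percentile. With limma 3.58.1 (R 4.3.3), group means were estimated from the 12 samples together, with an intensity-trended prior and with 8 residual and 5.59 prior degrees of freedom. P-values of the 7 comparisons were adjusted by Benjamini-Hochberg over 12598 genes. Hapln2 and Grin3b come from fits without the filter, and single probe sets from a fit over all of them. Exact permutation tests were two-sided. The number of arrays, 3 per group, limits the precision.

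The members and gene lists were chosen with earlier results of these data known. Named genes are the 10 members, Grin3b, up to 6 genes per list with the smallest p among those that passed, neighbouring members and the 3 closest profiles. Hapln3 was named after its values were seen. Tested on simulated data of 12598 genes with 200 changed, limma recovered 66% of genes changed by a log2 difference of 1 in P5KO against P0KO and 70% in P5WT against P0WT. The simulated spread of a gene was the same in every group, unlike in the data. Alternatives covered scaling, pseudocount, filter, probe set, prior, array weights, a replicate block and left-out samples.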

Additional observations from a re-analysis of the deposited data

How the results depend on the processing

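Of 1639 values of single genes and ratios under 25 alternative settings, 1586 stayed on their side of the threshold, 41 lost a call, 10 gained one and 2 turned direction. The 1586 include 64 that changed sign where neither value passed, which are not counted as turned. Both turns came with the next brightest probe set, at -0.37 for Ncan averaged over the genotypes and -0.033 for Ptprz1 in P5WT against P0WT. The number of genes risen in P5KO against P0KO, 4 in the main setting, was 2 with a filter at the 60th percentile, which leaves 6 genes of the set to test, 2 with median centring, and 1 to 4 when single samples were left out, the lowest without P5KO sample 2. The number of all genes that passed there went from 1321 to 1142 with that filter, 1114 with median centring and 653 without P5KO sample 2. In P5WT against P0WT the number of genes of the set was 2 with that filter, 2 with median centring, 2 with only the 2 groups in the fit, 1 with the next brightest probe sets, and 2 to 4 without single samples. Of all genes, 2442 passed there in the main setting and 2233, 1828, 1321 and 2439 in these settings, in the same order. Without single samples 1199 to 4824 passed. Averaged over the genotypes the number of genes of the set was 2 with that filter and 4 to 5 without single samples. Of all genes, 3734 passed in the main setting, 3259 with that filter and 2808 to 5361 without single samples. With array weights 6 genes rose in that average, 5 in wild type and 4 in knockout, where 5811, 6030 and 2100 of all genes passed. With them 2 genes passed in P0KO against P0WT and 1 in the average of both ages, where 3084 and 2047 of all genes passed, and the cause was not tested. Same-numbered samples of paired groups had deviations that correlated between -0.11 and 0.42, so the numbers were not taken as a pairing. With a replicate block 4 genes rose in knockout, 3 in wild type and 4 on average, where 1368, 2885 and 3909 of all genes passed. With that block 0 genes of the set passed between genotypes at P5, at P0 or averaged over the ages, where 1 of all genes passed in each. Leaving out P0WT samples 1 and 2, chosen with earlier results known, leaves 1 P0WT sample. The wild-type difference of Hapln4 was then 0.48 and the average difference of Bcan 0.29. The brightest sets of Ncan and Acan had standard errors of 0.31 and 0.30, against 0.10 for Ptprz1, which with 3 arrays a group limits what could be detected.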
